A study of Homo sapiens with 3 samples.

Results

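Amino acid transporters were represented in a pooled knockout screen by 550 guides against 55 genes, of 30197 guides and 2978 genes in the whole library. The members were all guides whose target symbol began with SLC1A, SLC3A, SLC6A, SLC7A, SLC36A, SLC38A or SLC43A, and each gene had 10 guides. By family, they covered 7 genes of SLC1, 2 of SLC3, 19 of SLC6, 13 of SLC7, 4 of SLC36, 7 of SLC38 and 3 of SLC43. All 55 symbols had an entry in RefSeq. The symbol rule also took in SLC6 carriers of GABA, monoamines, taurine and creatine, and SLC43A3, a carrier of purine nucleobases.

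The screen used MIA PaCa-2, an established human pancreatic ductal adenocarcinoma line, infected with a lentiviral knockout library of metabolic genes and selected with puromycin. One pool was the untreated initial population at day 0, and the others were grown for 14 days in the solvent DMSO or in apilimod, an inhibitor of the lysosomal lipid kinase PIKfyve. The label of the apilimod library gives 200 nM, whereas the methods of the study give another concentration, so the dose was not settled. There was 1 library in each group, and no spread between cultures could be measured.

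Cells import amino acids through carriers that differ in substrate, in coupling to ions and in membrane. SLC1 carriers take up glutamate or exchange neutral amino acids, SLC38 carriers move glutamine and other small neutral amino acids together with sodium, and several SLC7 proteins work only as light chains bound to an SLC3 heavy chain. Many cells carry several proteins for the same substrate, and amino acid supply feeds protein synthesis, glutathione synthesis and the signalling of mTORC1 at the lysosome. Pancreatic cancer cells are known for their use of glutamine, for cystine import and for scavenging protein through the lysosome.

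The value of a guide was its log2 change, that is, the log2 ratio of its share of the library after 14 days to its share at day 0, and these changes were averaged over the guides of a gene to give its score. A score below 0 means that the guides of a gene lost share of the pool on average. Each guide weighs equally in it, so the summed counts of a gene with a negative score can still rise. Guides needed 100 counts at day 0, which 529 of the 550 guides reached, and all 55 genes kept the required 6 guides, with 8 to 10 each. The SD given with a score is over guides of 1 library and does not measure the spread between cultures. A gene was called lower or higher where the exact two-sided rank-sum test of its guides against 487 guides that cut intergenic sequence gave a Benjamini-Hochberg adjusted p under 0.05, with the adjustment over all 2969 genes that passed the filters. The test compares these libraries, not the conditions, and no difference here has a replicate check.

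The libraries held 24695476, 26276517 and 25599416 counts in the order initial, DMSO and apilimod. The member guides had a median of 777.5, 872 and 831 counts, beside 651, 663 and 655 for all guides. A single member guide, number 7 of SLC6A2, was at 0 counts in each library, which allows up to 3 counts in each, as a limit on counting error only. The control guides did not behave alike in the 2 later libraries. Those with at least 1000 initial counts had median log2 changes of 0.16 in DMSO and 0.13 in apilimod (n = 282 guides), but those with 100 to 199 had -0.06 and 1.91 (n = 20 guides). The 32 member guides in this low range had medians of 0.13 and 0.07. Calls in apilimod that ended when the controls were restricted to abundant guides are named with the genes. The comparisons of DMSO and of apilimod with day 0 share the initial library, so their values are set side by side only.

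After 14 days in DMSO most amino acid transporter knockouts were not called against the control guides, whose median log2 change was 0.14. The median score of the members was 0.02, beside -0.03 for all genes. The lowest was at -0.72, where the lowest gene of the library was at -4.36. Lower than the control guides were SLC38A2, SLC1A5, SLC7A10, SLC7A11 and SLC7A6. These are 5 of 55 lower, against 18.9% of all genes tested, and 1 of 55 higher, against 0.842%.

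The lowest score belonged to SLC38A2, which encodes SNAT2, a sodium-coupled carrier of glutamine, alanine and other small neutral amino acids. Its 9 kept guides summed to 6967 counts at day 0, 5788 in DMSO and 4599 in apilimod. The score in DMSO was -0.72 ± 0.76 (SD, n = 9 guides), and 8 of the guides lay below the control median (adjusted p = 4.09e-05, exact rank-sum test). The most depleted guide, number 9, went from 267 to 47 counts, whereas number 7 went from 1873 to 2215. The call of SLC38A2 held in each of 10 alternative settings, with scores from -0.76 to -0.47 and an adjusted p between 4.85e-06 and 0.0352 (exact rank-sum test). It was the only member still called lower in DMSO when all gene-targeting guides replaced the control guides as the null, a setting at which 7.48% of genes were lower and 1.68% higher. SLC38A2 lies on chromosome 12 from 46358188 to 46372773 on the minus strand of GRCh38.p14. Its neighbour SLC38A1, which encodes the related carrier SNAT1, lies at 46183063 to 46269043 on the same strand and had a score of -0.08 ± 0.41 (SD, n = 9 guides), which was not called (adjusted p = 0.314, exact rank-sum test).

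SLC1A5 encodes ASCT2, a plasma membrane exchanger of glutamine, serine and alanine, and lies on chromosome 19 from 46774883 to 46788594 on the minus strand. Its guides summed to 8025 counts at day 0, 6693 in DMSO and 4698 in apilimod. In DMSO its score was -0.35 ± 0.52 (SD, n = 10 guides), with 9 of 10 guides below the control median (adjusted p = 0.00872, exact rank-sum test). The changes were modest for most guides, and guide 10 stood lowest, with 1062 counts at day 0 and 456 in DMSO. The call ended in 1 of 10 alternatives, the null of all gene-targeting guides, at an adjusted p of 0.361 by the exact rank-sum test. The related exchanger gene SLC1A4 was at 0.16 ± 0.27 (SD, n = 10 guides) and was not called.

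Of the 8 light chain genes, 3 were lower in DMSO, beside 18.9% of all genes tested. SLC7A11 encodes xCT, the light chain that exchanges cystine for glutamate, and its score was -0.32 ± 0.61 (SD, n = 10 guides), with an adjusted p of 0.0493 by the exact rank-sum test. Its guides disagreed, since number 1 went from 371 to 130 counts and number 9 from 753 to 441, while number 4 went from 254 to 370 and number 7 from 791 to 990. Its call ended in 4 of 10 alternatives, among them the removal of its farthest guide. SLC7A10, which encodes the light chain Asc-1 for small neutral amino acids, was at -0.35 ± 0.64, and SLC7A6, which encodes y+LAT2 for cationic and neutral amino acids, at -0.25 ± 0.42 (SD, n = 10 guides each). The exact rank-sum test gave an adjusted p of 0.0409 and 0.0305, and each call ended in 2 of 10 alternatives. The heavy chain gene SLC3A2, whose product these light chains bind, was at -0.13 ± 0.44 (SD, n = 10 guides), with 6 of 10 guides below the control median, and was not called (adjusted p = 0.173, exact rank-sum test).

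Among members that were not called in DMSO, the highest scores were those of SLC6A5 at 0.36, SLC6A16 at 0.34, SLC1A7 at 0.29 and SLC1A2 at 0.28, and the lowest were those of SLC6A17 at -0.57, SLC6A7 at -0.51, SLC38A7 at -0.36 and SLC6A2 at -0.35. SLC6A17 and SLC6A7 each held a guide far below the rest, number 8 of SLC6A17 with 292 counts at day 0 and 32 in DMSO and number 2 of SLC6A7 with 309 and 13.

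In apilimod 12 of the 55 genes were lower than the control guides, against 29.0% of all genes tested, and 0 were higher, against 0.236%. At an unadjusted p under 0.05, 22 members were lower and 0 higher by the exact rank-sum test. Over all 2969 genes, 1192 had such a p in either direction. The median score was -0.01, beside -0.04 for all genes, and the median log2 change of the control guides was 0.22. The 12 were SLC1A5, SLC38A2, SLC7A5, SLC7A6, SLC7A4, SLC6A17, SLC1A7, SLC6A7, SLC6A2, SLC3A2, SLC43A2 and SLC6A18.

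SLC1A5 had the lowest score of the members in apilimod, -1.06 ± 0.83 (SD, n = 10 guides), with every guide below the control median (adjusted p = 4.14e-08, exact rank-sum test). Guide 2 went from 717 counts at day 0 to 94, guide 9 from 178 to 52 and guide 7 from 1107 to 454. At the other end, guide 5 went from 934 to 874 counts. SLC38A2 was at -0.98 ± 0.78 (SD, n = 9 guides), also with every guide below (adjusted p = 3.09e-06, exact rank-sum test). SLC1A5 and SLC38A2 were lower in all 10 alternatives, and they were the 2 members still lower with all gene-targeting guides as the null, where 7.58% of genes were lower. At that null SLC38A6, a less studied gene of the SLC38 family with a score of 0.49 ± 0.42 (SD, n = 9 guides), was called higher, as were 2.76% of genes.

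Among the 12 were also SLC7A5 and SLC43A2, of the large neutral amino acid system L, beside 29.0% of all genes tested. The system L genes SLC7A8 and SLC43A1 were not called in apilimod, with scores of 0.0025 and -0.11. SLC7A5 encodes LAT1, the light chain that imports leucine and other large neutral amino acids, and lies on chromosome 16 from 87830023 to 87869507 on the minus strand. Its guides summed to 10900 counts at day 0, 11272 in DMSO and 9348 in apilimod, and its score in apilimod was -0.42 ± 0.45 (SD, n = 10 guides; adjusted p = 0.000327, exact rank-sum test). Of its guides 9 lay below the control median, and guide 8 was lowest, with 358 counts at day 0 and 138 in apilimod. In DMSO its score was -0.01 ± 0.34 (SD, n = 10 guides), which was not called. SLC43A2, which encodes the uniporter LAT4, was at -0.21 ± 0.59 in apilimod (SD, n = 10 guides), with 1 guide, number 5, far below the others at 385 counts at day 0 and 129 in apilimod. Unlike that of SLC7A5, its score was lower in DMSO than in apilimod, at -0.33 ± 0.65 (SD, n = 10 guides), and was not called there.

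The heavy chain gene SLC3A2, on chromosome 11 from 62856109 to 62888860, had a score of -0.22 ± 0.57 in apilimod (SD, n = 10 guides; adjusted p = 0.0382, exact rank-sum test). Guide 10 went from 622 to 221 counts, whereas guide 4 went from 838 to 1205. Its sums were 10087 counts at day 0, 9933 in DMSO and 9607 in apilimod, which differ less than those of SLC7A5. The calls of SLC3A2 and SLC43A2 ended in 4 of 10 alternatives and that of SLC6A18 in 5 of 10. For all 3, these included the control guides with at least 300 initial counts and those with at least 1000. The second of these was added once the data had been seen. In both, the other 9 genes stayed lower.

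The remaining genes lower in apilimod were of several kinds. SLC7A6 was at -0.51 ± 0.88 (SD, n = 10 guides), with guide 9 at 122 counts at day 0 and 18 in apilimod, and SLC7A4, which resembles the cationic carriers but has no assigned transport, at -0.44 ± 0.50 (SD, n = 9 guides). SLC6A17, which encodes a vesicular neutral amino acid carrier of neurons, was at -0.91 ± 1.12 (SD, n = 10 guides), SLC6A7, the proline transporter gene, at -0.56 ± 0.93 and SLC6A2, the noradrenaline transporter gene, at -0.53 ± 1.00 (SD, n = 9 guides each). SLC6A18, a kidney neutral amino acid carrier gene, was at -0.48 ± 1.12 (SD, n = 10 guides) and SLC1A7 at -0.52 ± 0.78 (SD, n = 9 guides). In each of these 7 genes the SD over guides was larger than the mean change. The kept guides of SLC6A2 summed to 7029 counts at day 0 and 7636 in apilimod, so its lower score did not come with a lower sum. Among members that were not called, the highest scores in apilimod were 0.56 for SLC6A15, 0.51 for SLC38A1, 0.49 for SLC38A6 and 0.40 for SLC43A3, and the lowest were -0.40 for SLC6A8, the creatine transporter gene, -0.36 for SLC38A7, -0.26 for SLC6A20 and -0.25 for SLC7A7. The guide of SLC6A15 farthest above the others was number 4, which had 130 counts at day 0, 153 in DMSO and 1286 in apilimod. In its range of initial counts the median log2 change in apilimod was 1.91 for control guides and 0.07 for member guides.

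Setting apilimod directly against DMSO addresses which of these knockouts were rarer, or more frequent, under PIKfyve inhibition. Guide changes were scaled separately for DMSO and apilimod to a control median of 0 and a median score of -1 for 27 nucleotide synthesis genes. The z of a gene is the difference of its scaled scores, apilimod minus DMSO, after centring and division by the SD across genes, whereas the log2 ratios given are unscaled. SLC1A7 alone was lower, 1 of 55, against 0.337% of all genes tested, and 0 were higher, against 0.202%. At an unadjusted p under 0.05, 6 members were lower and 2 higher by the exact rank-sum test. Over all 2969 genes, 318 had such a p in either direction. The median z of the members was -0.26, beside -0.07 for all genes, and 35 of 55 had a z below 0, against 53.0% of all genes.

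SLC1A7 encodes EAAT5, a glutamate transporter with a glutamate-gated chloride conductance that is known from the retina. It lies on chromosome 1 from 53087183 to 53142638 on the minus strand. Its 9 kept guides summed to 5863 counts at day 0, 7803 in DMSO and 5258 in apilimod. Guide 3 had 355 counts in DMSO and 106 in apilimod, guide 1 had 268 and 110, guide 2 had 188 and 79 and guide 8 had 919 and 437. Guide 6, the most abundant, had 2150 and 1780, and guide 5 had 597 and 504. Every kept guide was lower in apilimod than in DMSO, by unequal amounts, and so was guide 4, which did not pass the filter and had 188 and 103 counts. The mean log2 ratio was -0.81 with an SD of 0.51 over the 9 guides, and the z of -2.90 was the 14th lowest of 2969 genes (adjusted p = 0.000313, exact rank-sum test). The call held in all 11 alternatives in which the gene could be scored, with z from -3.18 to -2.58 and an adjusted p between 8e-05 and 0.00738 (exact rank-sum test). With a minimum of 300 initial counts too few of its guides were left, since 4 of the 9 lay between 176 and 283 counts at day 0.

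Set against day 0, the score of SLC1A7 was 0.29 ± 0.45 in DMSO, where 3 of 9 guides lay below the control median, and -0.52 ± 0.78 in apilimod, where 8 of 9 did (SD, n = 9 guides each). The other glutamate transporter genes were not called in any comparison. SLC1A1, the gene of EAAT3, had a mean log2 ratio of 0.02, SLC1A2, of the glial EAAT2, -0.17, SLC1A3, of the glial EAAT1, -0.07, and SLC1A6, of EAAT4, 0.11, where the exact rank-sum test gave an adjusted p between 0.723 and 0.977.

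A further 5 members had an unadjusted p under 0.05 and a lower level in apilimod, and none of them passed the adjustment. SLC1A5 had the 37th lowest z and a mean log2 ratio of -0.71 ± 0.89 (SD, n = 10 guides; adjusted p = 0.383, exact rank-sum test). Its guides were unequal, with 388 counts in DMSO and 94 in apilimod for guide 2, 267 and 52 for guide 9, and 1235 and 454 for guide 7, but 456 and 539 for guide 10. For SLC7A5 the mean log2 ratio was -0.41 and its SD 0.40 over 10 guides, with 9 of 10 guides below the control median (adjusted p = 0.292, exact rank-sum test). SLC6A5, the gene of the glycine transporter GlyT2, was at -0.37 and the orphan gene SLC6A16 at -0.24, where the exact rank-sum test gave an adjusted p of 0.307 and 0.354.

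The 2 members at the upper end were SLC7A11 and SLC38A1. SLC7A11, on chromosome 4 from 138164097 to 138242349, summed to 5579 counts at day 0, 5517 in DMSO and 7680 in apilimod. Guide 2 had 480, 405 and 1570 counts in that order and guide 1 had 371, 130 and 403, while guide 8 had 1631, 1968 and 1686. Of its guides, 8 of 10 lay above the control median, with a mean log2 ratio of 0.67 ± 0.72 (SD, n = 10 guides) and a z of 2.30, the 65th highest of 2969 genes (adjusted p = 0.238, exact rank-sum test). SLC38A1 summed to 8902, 9645 and 13075 counts, and 8 of 9 guides lay above the control median, with a mean log2 ratio of 0.59 ± 0.79 (SD, n = 9 guides) and a z of 1.83 (adjusted p = 0.301, exact rank-sum test). Guide 4 of SLC38A1 stood apart, with 203, 226 and 1103 counts. In its range, from 200 up to 300 initial counts, the median log2 change in apilimod was 1.37 for control guides and 0.02 for member guides. SLC7A11 and SLC38A1 were each called higher in 1 of 12 alternatives, the control guides with at least 1000 initial counts. In that setting the adjusted p was 0.0199 and 0.0418 by the exact rank-sum test. That setting was added once the data had been seen, and 1.45% of all genes were higher at it. The next highest z were 1.01 for SLC6A15 and 0.94 for SLC6A13, which were not called.

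The light chains were spread over both ends of the direct comparison. SLC7A5, SLC7A6, SLC7A7, SLC7A8, SLC7A10 and SLC7A11 pair with the product of SLC3A2, and their z ran from -1.37 for SLC7A5 to 2.30 for SLC7A11, with -0.24 for SLC3A2 itself. SLC3A1, the heavy chain gene of cystine and dibasic amino acid transport in the kidney, had scores of 0.12 in DMSO and 0.12 in apilimod, and its partner gene SLC7A9 had 0.15 and 0.20. SLC7A13, the gene of another kidney light chain, had 0.15 and -0.04. None of these 3 was called in any comparison.

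The cationic amino acid transporters were close to the control guides apart from SLC7A4. SLC7A1, which encodes the arginine and lysine importer CAT1 of most dividing cells, had scores of 0.10 ± 0.71 in DMSO and 0.25 ± 0.71 in apilimod (SD, n = 10 guides each). SLC7A2, SLC7A3 and SLC7A14 lay between 0.05 and 0.17 in DMSO and between -0.02 and 0.15 in apilimod. The SLC36 proton-coupled carriers had 0 of 4 genes called in every comparison. With 18.9% of all genes lower in DMSO, 29.0% in apilimod and 0.337% in the direct comparison, nothing particular to these 4 genes is read from this. In apilimod, 9 of 10 guides of SLC36A3 lay below the control median (adjusted p = 0.0564, exact rank-sum test). It was called lower there without its farthest guide. SLC36A1, whose product PAT1 exports amino acids from lysosomes, had scores of 0.26 ± 0.45 in DMSO and 0.10 ± 0.73 in apilimod (SD, n = 10 guides each), and SLC36A2, SLC36A3 and SLC36A4 ran from -0.05 to 0.10 and from -0.07 to 0.15. SLC38A7, which encodes a lysosomal glutamine and asparagine exporter, was at -0.36 ± 0.93 and -0.36 ± 0.95 (SD, n = 10 guides each), with 6 and 7 of 10 guides below the control median.

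In the SLC6 family 0 of 19 genes were lower and 1 was higher in DMSO, against 18.9% and 0.842% of all genes tested. In apilimod 4 were lower, against 29.0% of all genes. In the direct comparison 0 genes of the family were called, against 0.337% lower and 0.202% higher of all genes. Of its 9 amino acid carriers, SLC6A14, whose product ATB0,+ takes up neutral and cationic amino acids and is known from several carcinomas, was at 0.19 ± 0.41 in DMSO and -0.09 ± 0.61 in apilimod (SD, n = 9 guides each). The glycine transporter gene SLC6A9 was at 0.04 and -0.14, the neutral amino acid transporter gene SLC6A19 at 0.20 and 0.09, and the imino acid transporter gene SLC6A20 at -0.28 and -0.26. The taurine transporter gene SLC6A6 was at 0.15 and -0.02. The GABA and betaine carrier genes SLC6A11, SLC6A12 and SLC6A13 gave 0.18 and -0.10, -0.06 and 0.10, and -0.05 and 0.26, and the dopamine and serotonin transporter genes SLC6A3 and SLC6A4 gave -0.02 and 0.07, and -0.02 and 0.21. These genes were not called.

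The other SLC38 members were not called in any comparison. SLC38A3, SLC38A4 and SLC38A5, which encode sodium-coupled carriers of neutral amino acids, had DMSO scores of 0.18, -0.15 and -0.16 and apilimod scores of 0.13, 0.12 and -0.08. The system L gene SLC43A1, which encodes LAT3, had -0.03 ± 0.69 in DMSO and -0.11 ± 0.71 in apilimod (SD, n = 10 guides each). SLC43A3 had 0.24 and 0.40, with 8 of 9 guides above the control median in apilimod.

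Enzymes and carriers that handle the same amino acids were counted from lists set by textbook role, with no test between lists. Their counts stand beside 18.9% of all genes lower in DMSO and 29.0% lower in apilimod, and nothing particular to a list is read from them. Of 9 genes of cystine use and glutathione synthesis, 4 were lower in DMSO and 4 in apilimod, namely GCLC, GCLM, GSS and TXNRD1 in each, and 0 were called in the direct comparison. TXNRD1, the cytosolic thioredoxin reductase gene, was at -1.37 in DMSO and -0.98 in apilimod, GCLC, of the catalytic subunit for glutathione synthesis, at -0.64 and -0.51, and GPX4, of the lipid peroxide reductase, at -0.01 and 0.16. Of 12 genes of glutamine, glutamate and asparagine conversion, 3 were lower in DMSO and 6 in apilimod. Asparagine synthetase, encoded by ASNS, was at -1.32 and -0.95.

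Of 11 genes of serine and proline metabolism, not all of them synthetic, 3 were lower in DMSO and 7 in apilimod. ALDH18A1, the first enzyme of proline synthesis, was at -1.92 and -2.40 and the serine synthesis gene PHGDH at -0.01 and -0.46. Of 19 other amino acid and peptide carriers, 3 were lower in DMSO and 6 in apilimod, near the shares over all genes. The mitochondrial glutamate carrier gene SLC25A22 was at -0.82 and -1.09, the cystinosin gene CTNS, of the lysosomal cystine exporter, at -0.19 and -0.41, and the aspartate-glutamate carrier genes SLC25A12 and SLC25A13 at 0.18 and 0.15 in DMSO and 0.23 and 0.20 in apilimod. No gene of these 4 lists was called in the direct comparison by the exact rank-sum test with Benjamini-Hochberg adjustment. An unadjusted p under 0.05 was found for 3, TXNRD1, ASNS and the serine synthesis gene PSAT1, each with a z above 0. Over all 2969 genes it was found for 318, so nothing particular to the lists is read from these 3.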

How the data were processed

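Guide abundance was measured by sequencing in 3 libraries of MIA PaCa-2 cells, 1 per group. The authors deposited raw read counts per guide. According to the study's methods and the submitters' processing notes, mates were trimmed with cutadapt 4.1 and combined, aligned with Bowtie2 2.4.5 to the library's guides with MAGeCK 0.5.9.5 for the counting. The notes also name hg38, and bcl2fastq without a version. Reads had no molecular identifiers and are therefore not independent molecules, both mates of a pair can count, and the limits given for 0 counts cover counting error only. The table of the whole series held the same counts as the library files. Guide sequences and cut positions were not analysed here.

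With Python 3.11.15, numpy 2.4.6 and pandas 2.3.3, guides with fewer than 100 initial counts (21 of the 550) and genes with fewer than 6 guides were removed, 1 was added to each count, and the sums were divided by library totals. Filters and scores followed the study's methods. The reference list for scaling was chosen here, with medians of -1.36 in DMSO and -1.71 in apilimod. Count models have no residual degrees of freedom with 1 library per group and were not used. The rank-sum test used mid-ranks for ties and was tested on simulated data. Gene coordinates and strands came from RefSeq (GRCh38.p14).

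The members and gene lists were chosen with earlier results of these data known. Genes were named if called, if among the 4 lowest or highest uncalled scores of a comparison, or by textbook role; remaining members are named with their family. SLC38A9 was on the list by role, but no guide of the library targeted it. Some genes that the rule would name are not reported here. Alternatives changed the initial-count minimum, pseudocount, size factors, null guides, gene summary, farthest guide, scaling and reference.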

Additional observations from a re-analysis of the deposited data

How the results depend on the processing

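The number of members called, or which members were called, moved with the null, the minimum of initial counts, the pseudocount and the removal of a guide. The shares over all genes at the same setting, given in brackets, moved too. The 5 genes lower in DMSO (18.9%) became 3 with a minimum of 30 initial counts (17.8%). With all gene-targeting guides as the null, 1 was lower in DMSO (7.48%). With control guides of at least 1000 initial counts, 8 were lower in DMSO (22.2%) and 9 in apilimod (22.3%). This setting was added once the data had been seen. The 12 lower in apilimod (29.0%) became 2 (7.58%), and the 0 higher (0.236%) became 1 (2.76%), with all gene-targeting guides as the null. Without the farthest guide of each gene, 15 were lower in apilimod (29.6%), of which 9 were among the 12. At the same setting 4 were lower in DMSO (18.6%), of which 3 were among the 5 and SLC38A4 was added. With a pseudocount of 10, 6 were lower in DMSO (19.2%), SLC6A17 being added. In the direct comparison the 1 lower gene (0.337%) became 0 with a minimum of 300 initial counts (1.08%), where SLC1A7 could not be scored. The 0 higher (0.202%) became 2 with control guides of at least 1000 initial counts (1.45%). No called member changed direction in any of the alternatives run. The counts of all genes called in the direct comparison, 10 lower and 6 higher as reported, were 36 and 1 without scaling and 41 and 1 with a minimum of 30 initial counts, and 17 and 2 with a pseudocount of 10 or with the median over guides, while SLC1A7 stayed lower in each. With 1 library per group, none could be left out. No paired analysis was possible because each group had 1 library.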

Other observations

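Of the 21 member guides under 100 counts at day 0, which entered no comparison, 4 (chosen after their values were seen) were far more abundant in apilimod than in both other libraries. Guide 4 of SLC6A16 had 23 counts at day 0, 25 in DMSO and 388 in apilimod. Guide 5 of SLC38A4 had 38, 34 and 327, guide 10 of SLC6A11 had 21, 20 and 262, and guide 1 of SLC6A11 had 25, 43 and 158.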
